A study of Mus musculus with 3 samples.

Results

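Placode cells of embryonic mouse skin were compared by how much Madcam1 transcript each cell held, inside samples already sorted for the MAdCAM-1 protein. The cells came from dorsal skin epithelium of wild-type C57BL/6JOlaHsd embryos at E14.5, pooled from 3 to 4 littermates per sample. The epithelium was lifted off the mesenchyme with Dispase II, dissociated with TrypLE, stained with an antibody to MAdCAM-1 and sorted live, and libraries were made with 10x Genomics 3′ chemistry, version 2. Both placode-enriched libraries held MAdCAM-1-positive cells, so the Madcam1-high and Madcam1-zero cells below shared genotype, strain, age, tissue and gate. A total epithelium library, sorted live without the gate, is used here for background levels, for single values and in 1 alternative fit.

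A placode cell was one in which the unique molecular identifiers (UMIs, each marking 1 captured RNA molecule) of Dkk4, Edar, Fgf20, Bmp2 and Ltb summed to at least 4 per 10000 UMIs of the cell, and those of Krt1, Krt10 and Krtdap to under 5. This sum of 5 placode genes is called the placode score. Of the 3082 cells of the placode-enriched libraries, 534 in library 1 and 556 in library 2 met the rule after doublets were removed, which was 35.5% of the kept cells in each. Madcam1-high cells had 2 or more Madcam1 UMIs and numbered 211 in library 1 and 187 in library 2. Madcam1-zero cells had 0 Madcam1 UMIs and numbered 196 and 222. The 816 cells of both classes were drawn from 4683 cells in all libraries, and the 127 and 147 placode cells with exactly 1 Madcam1 UMI were kept apart. Since the rule used Madcam1, the 5 placode genes and the 3 keratins, these 9 genes are described below without a test.

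A hair placode is a local thickening of the epidermis that Wnt and ectodysplasin (Eda) signals induce, and from which the hair follicle grows down. Its cells send Shh, Fgf20, Bmp2 and Wnt ligands to their neighbours and to the dermal condensate beneath. MAdCAM-1 is an immunoglobulin-family adhesion molecule best known on the vessels of gut-associated lymphoid tissue, where it binds the lymphocyte integrin α4β7. There it can be induced through NF-kB, the pathway that also transmits the Eda signal in skin, and its presence on the placode surface is what the sort used.

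Madcam1 lies on chromosome 10, from 79664559 to 79668537 on the plus strand of GRCm38, and is a protein-coding gene. The promoters of 3 genes are shown, each from 250 bases before to 50 bases after the start in the RefSeq table for GRCm38.p6: the gene that defines the classes, the gene with the largest rise by the naming rule, and a Wnt target that rose. Capitals mark matches to a form of the NF-kB site, GGGAA followed by any 3 bases and CC, or to CTTTGAT, the core of the LEF/TCF site, searched on both strands.
Madcam1, chr10:79664309-79664608, plus strand: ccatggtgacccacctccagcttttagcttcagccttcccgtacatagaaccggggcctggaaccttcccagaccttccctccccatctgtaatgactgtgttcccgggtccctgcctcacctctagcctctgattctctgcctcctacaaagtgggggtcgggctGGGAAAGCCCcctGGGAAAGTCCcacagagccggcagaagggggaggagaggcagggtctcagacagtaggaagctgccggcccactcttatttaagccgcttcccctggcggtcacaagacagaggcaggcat
S100a9, chr3:90695672-90695971, minus strand: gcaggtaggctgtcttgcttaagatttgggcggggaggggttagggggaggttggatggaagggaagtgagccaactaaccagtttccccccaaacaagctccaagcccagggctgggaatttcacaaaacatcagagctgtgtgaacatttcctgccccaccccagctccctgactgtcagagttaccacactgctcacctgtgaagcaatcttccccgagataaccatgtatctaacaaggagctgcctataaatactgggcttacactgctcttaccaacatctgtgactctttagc
Sp5, chr2:70474673-70474972, plus strand: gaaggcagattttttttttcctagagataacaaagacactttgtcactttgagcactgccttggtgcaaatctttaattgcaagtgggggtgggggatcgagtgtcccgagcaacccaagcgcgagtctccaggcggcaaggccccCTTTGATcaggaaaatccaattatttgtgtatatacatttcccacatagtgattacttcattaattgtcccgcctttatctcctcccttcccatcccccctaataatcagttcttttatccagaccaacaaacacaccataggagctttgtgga
The Madcam1 promoter held GGGAAAGCCC starting at position -84 and GGGAAAGTCC at position -71 relative to the start. The S100a9 window held neither motif, and the Sp5 window held CTTTGAT at position -104. The NF-kB form occurred in 5.78% of the 32851 promoters of the table and in 8.20% of the 7963 promoters of genes tested here. It occurred in 6 of the 44 matched promoters of genes that rose in Madcam1-high cells and in 2 of the 25 of genes that fell. CTTTGAT occurred in 2 of these 44 and 0 of these 25 promoters, against 2.95% of the promoters of genes tested and 3.73% of the whole table. These matches describe letters only.

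Madcam1 transcript was sparse and unevenly spread among sorted placode cells. Library 1 averaged 1.45 UMIs per placode cell and library 2 averaged 1.33, with a variance 1.84 and 2.09 times the mean, and no cell held more than 11. Madcam1-high cells made up 39.5% and 33.6% of the placode cells in libraries 1 and 2, cells with 1 UMI 23.8% and 26.4%, and Madcam1-zero cells 36.7% and 39.9%. The classes also differed in depth. The median Madcam1-high cell held 21248 UMIs in library 1 and 22116 in library 2, against 18657 and 18960 in Madcam1-zero cells.

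**Figure D1:**
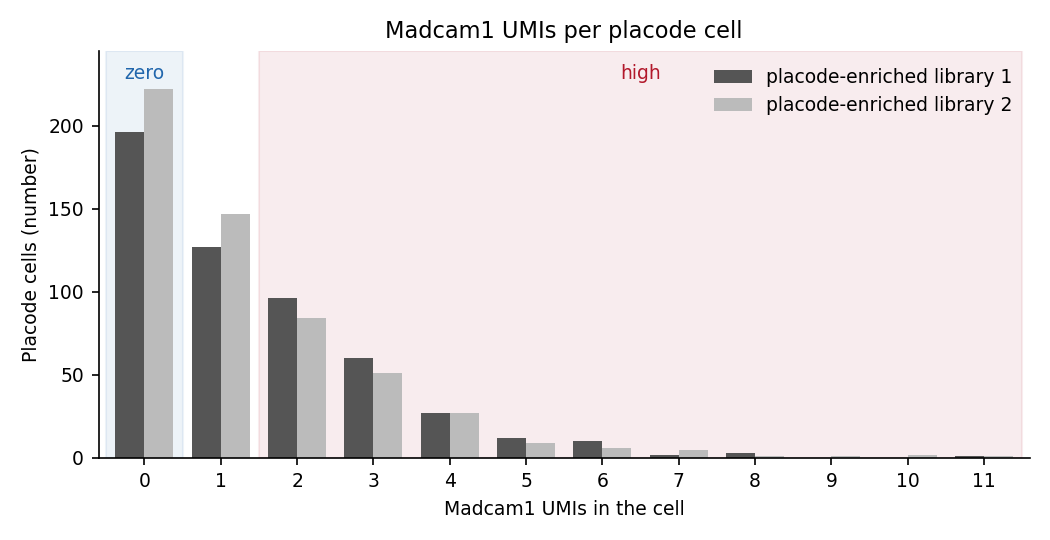
Number of placode cells (y axis) by the number of Madcam1 UMIs in the cell (x axis) in placode-enriched libraries 1 (dark bars) and 2 (light bars). The shaded areas mark Madcam1-zero cells (196 and 222) and Madcam1-high cells (211 and 187), and the bars between them are the cells with 1 UMI (127 and 147).

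A cell with 0 Madcam1 UMIs is one in which none was captured, and it may still express the gene. When each cell was thinned to 10000 UMIs, 39 of 206 Madcam1-high cells in library 1 (18.9%) and 46 of 182 in library 2 (25.3%) had no Madcam1 UMI left. Of cells that met the placode rule, 63.3% in library 1 and 60.1% in library 2 had a Madcam1 UMI (42.8% and 39.9% after thinning, median depth 19994.5 and 20802.5 UMIs). Suprabasal keratin-rich cells of the total epithelium library, which should lack the transcript, had one in 5 of 239 cells (2.09%, exact 95% interval 0.683% to 4.81%, median 24380 UMIs), or 0.429% after thinning. The placode shares of the gated libraries lay above this background. Placode cells of the ungated total epithelium library had a Madcam1 UMI in 6 of 35 cells (17.1%, 6.56% to 33.6%, median 17258 UMIs), or 11.8% after thinning. The gated and ungated placode shares thus differed as well. Of such keratin-rich cells in the placode-enriched libraries themselves, 2 of 11 in library 1 (18.2%, 2.28% to 51.8%) and 0 of 10 in library 2 (0 to 30.8%) had a Madcam1 UMI, so the background of the sorted libraries is known only loosely. In the same placode-enriched libraries, cells with a placode score under 1 and without keratins had a Madcam1 UMI in 26.1% and 25.1% of cells, at a median of 24797 and 27093 UMIs. Such cells of the total epithelium library had one in 2.55%. Intervals cover counting error only.

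The edge of the placode rule was not sharp in Madcam1. Just inside it, at a score from 4 to under 5, 61 and 62 cells of libraries 1 and 2 had a Madcam1 UMI in 50.8% and 37.1% of cases. Just outside, at a score from 3 to under 4, the 85 and 69 cells had one in 40.0% and 47.8%.

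To compare the classes at equal depth, each Madcam1-high cell was paired with a Madcam1-zero cell of the same library and a similar UMI total. This gave 165 pairs in library 1 and 162 in library 2, with a median of 19966 and 21217.5 UMIs in Madcam1-high cells and of 19755 and 21092 in Madcam1-zero cells. UMIs were summed over the cells of each class and library, and levels are given as counts per 1000000 UMIs of the sum (CPM). Madcam1 itself stood at 142.7 and 142.5 CPM in the Madcam1-high sums of libraries 1 and 2 (491 and 518 UMIs), against 0 in the Madcam1-zero sums, where 3 UMIs would be 0.877 and 0.828 CPM. The cells with 1 UMI, which were not matched for depth, stood at 47.8 and 44.8 CPM.

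The genes of the placode score leaned towards the Madcam1-high cells without doing so in both libraries for each gene. Dkk4, a secreted Wnt inhibitor that Wnt and Eda signals switch on in placodes, stood at 785 and 634 CPM in Madcam1-high cells of libraries 1 and 2, against 639 and 584 CPM in Madcam1-zero cells. Ltb, the membrane anchor of the lymphotoxin complex and an Eda target, stood at 482 and 425 CPM in Madcam1-high cells, against 337 and 398 CPM in Madcam1-zero cells. Fgf20, an early placode signal downstream of Eda, stood at 144 and 119 CPM in Madcam1-high cells, against 97.3 and 98.5 CPM in Madcam1-zero cells. For these 3 genes the Madcam1-high value was the larger one in each library, although for Dkk4 the sums of the classes overlapped across libraries. Edar, the Eda receptor, stood at 90.7 and 99.0 CPM in Madcam1-high cells, against 108 and 90.3 CPM in Madcam1-zero cells, with opposite directions in the libraries. Bmp2 did the same, at 172 and 230 CPM in Madcam1-high cells, against 176 and 168 CPM in Madcam1-zero cells. As a result the median placode score was 13.4 and 12.6 in Madcam1-high cells of libraries 1 and 2, against 9.61 and 9.19 in Madcam1-zero cells. The keratins of the rule were low in both classes, with Krt10 at 48.2 and 50.1 CPM in Madcam1-high cells, against 54.3 and 40.0 CPM in Madcam1-zero cells.

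Apart from these 9 genes, the Madcam1-high cells held more transcript of the Shh signal, of Tgfb2 and of the hair follicle factors Lhx2 and Sox21. They held less of the antagonist Sostdc1, of Sox9 and of basal keratins Krt15 and Krt5. With cells also matched on the placode score, Sostdc1, Krt15 and Krt5 still passed, and Shh, Tgfb2, Lhx2, Sox21 and Sox9 did not. Of 10349 genes tested with edgeR's quasi-likelihood test, with the library as a block, 93 passed a Benjamini-Hochberg adjusted p of 0.05, which is 0.899% of the genes tested. Of these, 56 were higher in Madcam1-high cells (0.541%) and 37 lower (0.358%), and 934 genes had an unadjusted p under 0.05. The shares of 0.541% and 0.358% are the background for the counts within gene lists below. These lists were drawn up with earlier results of these data in view. Rises spanned 0.11 to 1.84 and falls -0.08 to -1.91 on the log2 scale, and 11 genes reached a log2 size of 1. The 4 sums did not overlap between classes for 86 of the 93 genes, against 30.4% of all genes tested. The median log2 fold change of all genes tested was -0.00. With 2 pairs of sums, the spread was estimated with 1 residual degree of freedom and moderated over all genes, and with the block left out or with low-count genes kept in, 0 genes passed. DESeq2 with the same block called 5 higher and 7 lower genes.

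**Figure D2:**
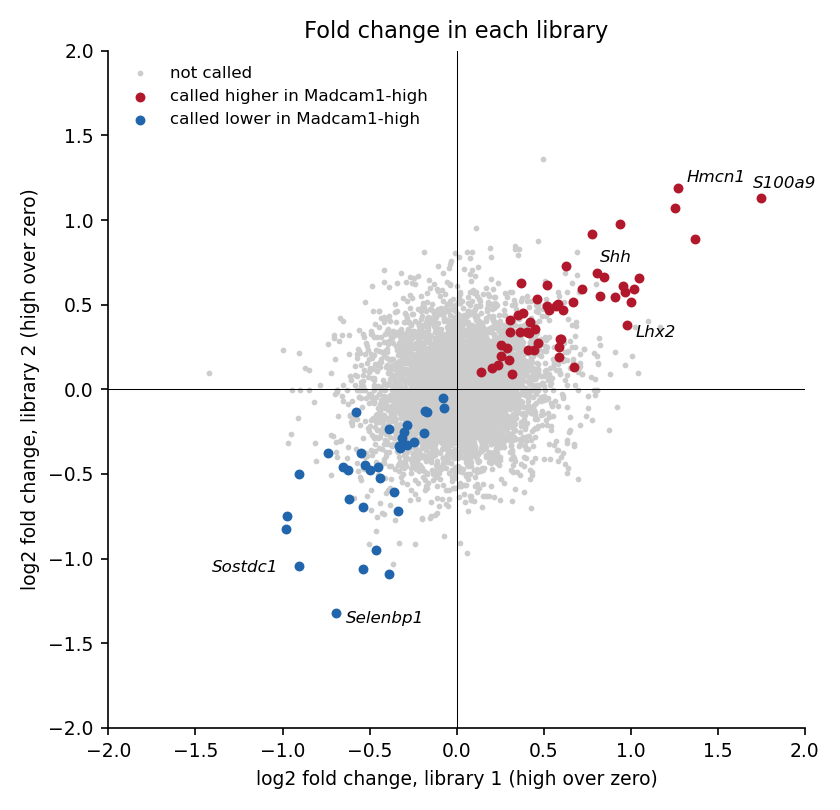
Log2 fold change of Madcam1-high over Madcam1-zero cells in library 1 (x axis) and library 2 (y axis), on the scale log2(CPM + 1). Each point is 1 gene tested with a mean of at least 10 CPM, so called genes below that level, such as Stat5a and Anxa8, are not drawn. Red points are the genes called higher and blue points those called lower in Madcam1-high cells, and each called gene had the same sign in both libraries.

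S100a9, which encodes a calcium-binding protein best known from neutrophils and from stressed keratinocytes, had the largest rise among the genes picked by the naming rule. It stood at 148 and 83.4 CPM in Madcam1-high cells of libraries 1 and 2, against 43.2 and 37.5 CPM in Madcam1-zero cells, a log2 fold change of 1.49 ± 0.12 (SE, edgeR quasi-likelihood adjusted p = 2.1e-07). Both Madcam1-high sums lay above both Madcam1-zero sums, but a few cells carried much of the transcript. The 5 cells with the most S100a9 held 32.5% and 44.2% of its UMIs in the Madcam1-high sums and 39.9% and 40.4% in the Madcam1-zero sums. Cells with any S100a9 UMI numbered 78 and 68 among Madcam1-high cells, against 53 and 51 among Madcam1-zero cells. S100a8, its usual partner in calprotectin, had 5 UMIs over the matched Madcam1-high cells and 0 over the matched Madcam1-zero cells, beside 811 and 284 for S100a9. S100a6, another calcium-binding protein of this family, rose by 0.75 ± 0.12. In library 2 its 5 richest cells held 33.8% of the Madcam1-high UMIs, against 19.5% of the Madcam1-zero UMIs. In library 1 these shares were 25.1% and 29.8%. Cells with any S100a6 UMI numbered 79 and 72 among Madcam1-high cells of libraries 1 and 2, against 54 and 67 among Madcam1-zero cells.

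Signalling molecules were among the genes that differed. Shh, the ligand that placodes send to the epithelium and dermis, stood at 124 and 117 CPM in Madcam1-high cells, against 68.7 and 73.1 CPM in Madcam1-zero cells (log2 fold change 0.75 ± 0.09, edgeR quasi-likelihood adjusted p = 4.16e-05). Shh UMIs were seen in 116 and 112 Madcam1-high cells, against 78 and 90 Madcam1-zero cells. Of the 11 Hedgehog genes tested Shh alone passed, and the list's median was -0.08. Ptch1, receptor and direct target of the pathway, stood at 43.3 and 48.7 CPM in Madcam1-high cells, against 54.3 and 59.1 CPM in Madcam1-zero cells (log2 fold change -0.31 ± 0.11, edgeR quasi-likelihood adjusted p = 0.31). Gli1, a target transcribed where the pathway is active, stood at 23.0 and 20.1 CPM in Madcam1-high cells, against 23.7 and 32.0 CPM in Madcam1-zero cells, and did not pass either.

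Among 18 Bmp and Tgfb genes tested, 1 rose and 1 fell, with a median of 0.04. Sostdc1, a secreted antagonist of Bmp and Wnt signals (also called ectodin or Wise), stood at 160 and 112 CPM in Madcam1-high cells, against 301 and 232 CPM in Madcam1-zero cells. Both Madcam1-high sums lay below both Madcam1-zero sums, with a log2 fold change of -0.98 ± 0.06 (edgeR quasi-likelihood adjusted p = 1.2e-08). Sostdc1 UMIs were nonetheless found in 132 and 102 Madcam1-high cells, against 129 and 124 Madcam1-zero cells, of 165 and 162 in each class. Tgfb2, a ligand of the Tgfb family, stood at 92.7 and 101 CPM in Madcam1-high cells, against 48.8 and 69.0 CPM in Madcam1-zero cells, a log2 fold change of 0.70 ± 0.10. Fst, the activin antagonist follistatin, stood at 27.3 and 20.1 CPM in Madcam1-high cells, against 40.9 and 28.4 CPM in Madcam1-zero cells, and did not pass (log2 fold change -0.56, edgeR quasi-likelihood adjusted p = 0.088).

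The Wnt lists moved little as a whole. Of 14 feedback and target genes tested 1 rose, with a median of 0.13, and of 10 ligands and secretion genes 1 rose, with a median of 0.01. Sp5, a transcription factor that Wnt signals switch on directly, stood at 41.3 and 52.8 CPM in Madcam1-high cells, against 26.3 and 31.5 CPM in Madcam1-zero cells (log2 fold change 0.69 ± 0.13, edgeR quasi-likelihood adjusted p = 0.00618). Wnt10b, the early placode Wnt ligand, stood at 45 and 49.2 CPM in Madcam1-high cells, against 29.8 and 34.5 CPM in Madcam1-zero cells, a log2 fold change of 0.54 ± 0.12. The common readouts of the pathway did not pass. Lef1, the transcription factor that carries the signal, had a log2 fold change of 0.20 ± 0.05 (edgeR quasi-likelihood adjusted p = 0.103), and Axin2, its feedback inhibitor, one of 0.03 ± 0.13.

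The Eda and NF-kB list, the pathway tied to MAdCAM-1 in other tissues, held 22 tested genes, of which 1 rose and 0 fell, with a median of 0.06 and 16 positive values. The gene that rose was Relb, the NF-kB subunit of the non-canonical branch. It stood at 92.1 and 81.7 CPM in Madcam1-high cells, against 60.5 and 66.2 CPM in Madcam1-zero cells (log2 fold change 0.44 ± 0.10, edgeR quasi-likelihood adjusted p = 0.0291). Its partner Nfkb2 stood at 44.2 and 36.0 CPM in Madcam1-high cells, against 31.8 and 32.3 CPM in Madcam1-zero cells, and did not pass. Nfkbia, the inhibitor induced as feedback, had a log2 fold change of -0.00 ± 0.05, and Edaradd, the Edar adaptor, one of 0.20 ± 0.10. None of the 12 Fgf receptor, feedback and target genes tested passed with edgeR. Their median was -0.19 with 2 positive values, and Dusp6, a feedback phosphatase of the pathway, had a log2 fold change of 0.01. None of the 9 Notch genes passed either, with a median of -0.09.

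Of 15 hair follicle transcription factors tested, 4 passed, 3 upward and 1 downward, against 0.541% of all genes rising and 0.358% falling. The list's median was -0.05. Lhx2, a LIM homeodomain factor of the placode and later of the stem cells, stood at 46.5 and 42.4 CPM in Madcam1-high cells, against 23.1 and 32.3 CPM in Madcam1-zero cells (log2 fold change 0.66 ± 0.15, edgeR quasi-likelihood adjusted p = 0.0291). Sox21 rose by 0.53 ± 0.12 and Sox4 by 0.15 ± 0.03. Sox9, which marks cells next to the Shh-expressing ones and later the stem cells, went the other way. It stood at 20.1 and 17.3 CPM in Madcam1-high cells, against 29.5 and 37.3 CPM in Madcam1-zero cells (log2 fold change -0.85 ± 0.16, edgeR quasi-likelihood adjusted p = 0.00941). Shh was thus higher and Sox9 lower in the Madcam1-high sums of each library.

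Of the lists examined, the one of basal epidermis genes had the most members that fell. Of 20 tested, 7 fell and 0 rose, 18 had a negative value and the median was -0.26, against 0.358% of all genes falling. The lists were drawn up with earlier results of these data in view, so the direction is not independent evidence. The 7 were Krt15, Krt5, Sostdc1, Igf2, Cxcl14, Lmo1 and Anxa1. Sostdc1 is also counted among the Bmp and Tgfb genes above, and the cell type markers planned for this report place it with the placode. Of the other planned placode markers that were tested, Shh and Wnt10b rose and Lef1 did not pass. Krt15, a keratin of basal cells with stem-like character, stood at 261 and 190 CPM in Madcam1-high cells, against 369 and 265 CPM in Madcam1-zero cells, with both Madcam1-high sums below both Madcam1-zero sums. Its log2 fold change was -0.50 ± 0.05 (edgeR quasi-likelihood adjusted p = 1.83e-05), and that of Krt5 was -0.34 ± 0.04. Krt14, the partner of Krt5, had a log2 fold change of -0.09 ± 0.03 and did not pass (edgeR quasi-likelihood adjusted p = 0.138), and Trp63, the master factor of stratified epithelium, stood at -0.08. Of 25 basement membrane and integrin genes 0 passed with edgeR, with a median of -0.05.

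Of 14 suprabasal genes tested, 4 fell and 0 rose, with a median of -0.31, against 0.358% of all genes falling. The 4 were Dmkn, Sfn, Perp and Cebpb. Cebpb, a transcription factor of keratinocyte differentiation, stood at 55.2 and 29.4 CPM in Madcam1-high cells, against 80.6 and 48.3 CPM in Madcam1-zero cells, lower in each library with overlap across them. Perp, a p53 target of desmosomes, and Sfn, the 14-3-3 protein stratifin, are also present in basal cells, and both had a log2 fold change of -0.32 ± 0.05. Krt17, a keratin of skin appendages, rose by 0.20 ± 0.04. The simple keratin Krt8 stood at 8.72 and 15.1 CPM in Madcam1-high cells, against 7.89 and 4.97 CPM in Madcam1-zero cells, and did not pass.

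**Figure D3:**
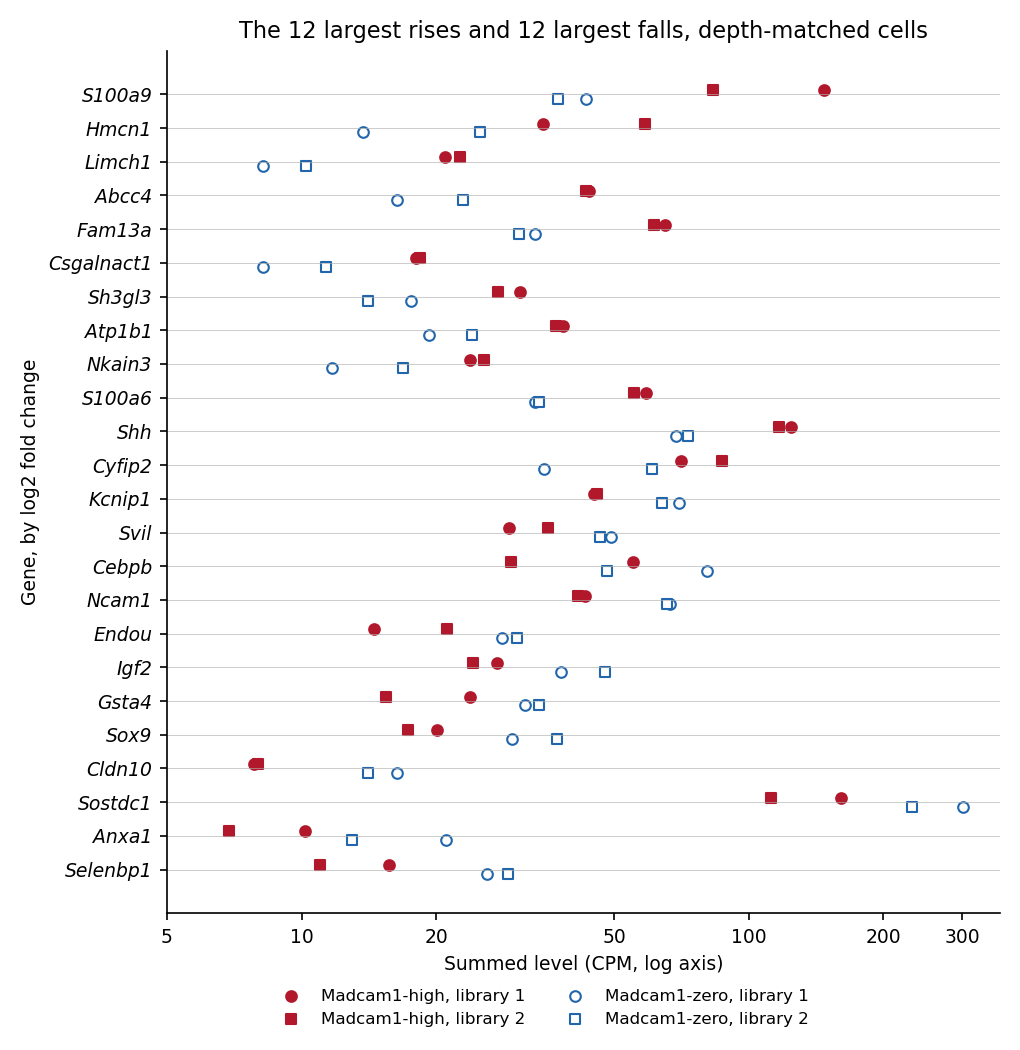
Summed level in CPM (x axis, log scale) of the 12 genes with the largest rise and the 12 with the largest fall by the naming rule, in depth-matched Madcam1-high cells (filled red) and Madcam1-zero cells (open blue) of libraries 1 (circles) and 2 (squares). For Shh the filled points lie at 124 and 117 CPM and the open ones at 68.7 and 73.1, and for Sostdc1 at 160 and 112 against 301 and 232.

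The other large rises named by the rule concerned genes outside the signalling lists. Hmcn1, which encodes the extracellular matrix protein hemicentin, stood at 34.6 and 58.6 CPM in Madcam1-high cells, against 13.7 and 25.1 CPM in Madcam1-zero cells (log2 fold change 1.25 ± 0.14, edgeR quasi-likelihood adjusted p = 4.16e-05). Limch1, a regulator of non-muscle myosin, stood at 20.9 and 22.6 CPM in Madcam1-high cells, against 8.18 and 10.2 CPM in Madcam1-zero cells, a log2 fold change of 1.23 ± 0.20. Fam13a rose by 0.97 ± 0.11 and Cyfip2, part of the actin-regulating WAVE complex, by 0.71 ± 0.11. Cyfip2 was the one gene of 26 in the actomyosin list that passed, and the list's median was 0.05. Abcc4, an exporter of cyclic nucleotides and prostaglandins, rose by 1.13 ± 0.15, Atp1b1, a beta subunit of the sodium pump, by 0.79 ± 0.15, and Nkain3, which interacts with that pump, by 0.78 ± 0.18. Csgalnact1, which starts chondroitin sulfate chains, rose by 0.88 ± 0.21, and Sh3gl3, an endophilin of membrane uptake, by 0.87 ± 0.17.

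Among 17 adhesion molecules and integrin partners tested, 1 rose and 1 fell, with a median of -0.08. Alcam, an immunoglobulin-family adhesion molecule like MAdCAM-1, stood at 157 and 178 CPM in Madcam1-high cells, against 121 and 115 CPM in Madcam1-zero cells, a log2 fold change of 0.50 ± 0.08. Ncam1, the neural cell adhesion molecule and of the same family, stood at 43.0 and 41.5 CPM in Madcam1-high cells, against 66.6 and 65.7 CPM in Madcam1-zero cells, a log2 fold change of -0.66 ± 0.11. The chains of the MAdCAM-1 receptor had few UMIs, with 1 Itga4 UMI over the matched Madcam1-high cells and 0 over the matched Madcam1-zero cells, and 9 and 5 for Itgb7. Cldn10, a tight junction claudin, fell by 0.95 on the log2 scale. Of 32 guidance cues and receptors 0 passed with edgeR, with a median of 0.01.

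The remaining falls named by the rule spanned several roles. Selenbp1, a selenium-binding protein, stood at 15.7 and 11 CPM in Madcam1-high cells, against 26 and 29 CPM in Madcam1-zero cells (log2 fold change -1.06 ± 0.19, edgeR quasi-likelihood adjusted p = 0.00421). Anxa1, a calcium-dependent phospholipid-binding annexin, had a log2 fold change of -1.0 ± 0.21, and Gsta4, a glutathione transferase, one of -0.76 ± 0.17. Igf2, the imprinted growth factor, stood at 27.3 and 24.2 CPM in Madcam1-high cells, against 38 and 47.7 CPM in Madcam1-zero cells, a log2 fold change of -0.75 ± 0.14. H19, the RNA transcribed beside Igf2 from the other parental allele, was singled out after its values were seen. It stood at 137 and 158 CPM in Madcam1-high cells, against 215 and 218 CPM in Madcam1-zero cells, a log2 fold change of -0.57 ± 0.07. Endou, Svil and Kcnip1 fell as well, with log2 fold changes between -0.72 and -0.57.

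Few cell cycle genes passed. Of 43 S phase genes 1 fell and 0 rose, with a median of -0.02. That gene was Rrm2, a subunit of ribonucleotide reductase, at 123 and 104 CPM in Madcam1-high cells, against 185 and 114 CPM in Madcam1-zero cells. Of 53 genes of G2 and M phase 0 passed with edgeR, with a median of 0.02, and of 15 cell cycle inhibitors 0 passed, with a median of -0.12.

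Cells with exactly 1 Madcam1 UMI mostly fell between the classes. For 45 of the 56 genes that rose (80.4%) and 26 of the 37 that fell (70.3%), their level lay between those of the Madcam1-zero and Madcam1-high sums in both libraries, against 12.3% of all genes tested. The genes were called from the outer classes, so the ends of each order were fixed and only the place of the 1-UMI cells was free. Called genes were thereby picked for a gap between these classes and the genes tested were not, so 12.3% is not a like baseline. The 1-UMI cells were also not matched for depth. Shh stood at 68.7, 102 and 124 CPM with 0, 1 and 2 or more Madcam1 UMIs in library 1, and at 73.1, 98.5 and 117 CPM in library 2. Sostdc1 stood at 301, 214 and 160 CPM in library 1 and at 232, 148 and 112 CPM in library 2. For both genes the 1-UMI cells were intermediate in each library.

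**Figure D4:**
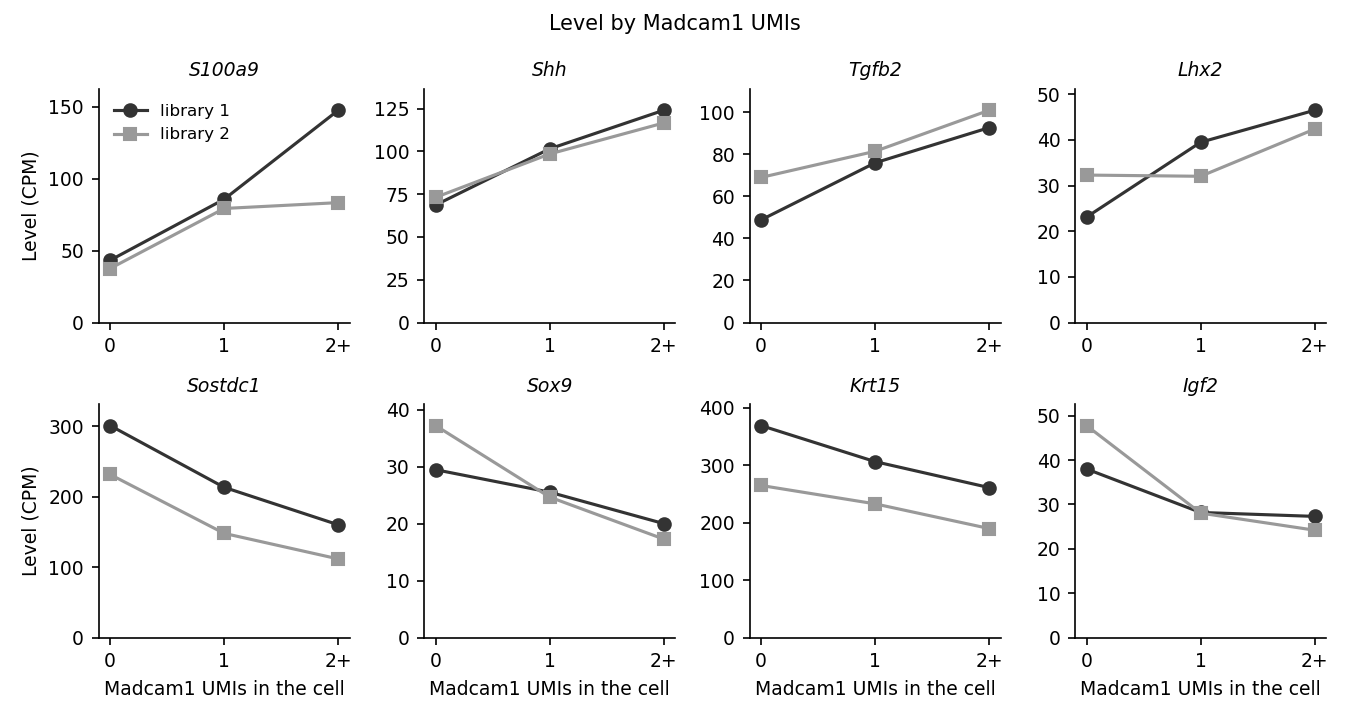
Level in CPM (y axis, from 0) of 8 genes by the number of Madcam1 UMIs in the cell (x axis, 0, 1, and 2 or more), in placode-enriched libraries 1 (dark circles) and 2 (light squares). The Shh, Tgfb2 and S100a9 lines go up and the Sostdc1, Sox9, Krt15 and Igf2 lines go down from 0 to 2 or more in both libraries, and Lhx2 in library 2 stays level between 0 and 1.

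Since Madcam1-high cells also had the higher placode score, the comparison was repeated with cells matched on depth and score together, which left 130 pairs in library 1 and 127 in library 2. Median scores were then 11.5 and 11.4 in Madcam1-high cells of libraries 1 and 2, against 10.9 and 11.7 in Madcam1-zero cells. Of 9957 genes tested, 24 passed (0.241%), 12 higher and 12 lower (0.121% each), and all 24 were among the 93. Each of the 93 kept its sign, and 84 had a smaller fold change. The median of the 56 that rose was 0.37 after score matching and 0.50 before it, and that of the 37 that fell was -0.36 and -0.50. These are the same cells matched in another way, and fewer pairs were tested. The 93 were picked by their depth-matched values, so kept signs and smaller sizes were partly set by that choice. Whether matching on the score itself made the values smaller was not tested.

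The genes differed in how far their values held when the score was matched. S100a9 had a log2 fold change of 1.64 ± 0.13 and Hmcn1 one of 1.0 ± 0.17 with the score matched (edgeR quasi-likelihood adjusted p = 8.15e-07 and 0.00604). Krt15 stood at -0.48 ± 0.08, Ncam1 at -0.61 ± 0.12 and Sostdc1 at -0.62 ± 0.07, and all 3 still passed. The placode signals moved closer to 0 and no longer passed. Shh had a log2 fold change of 0.39 ± 0.11 (edgeR quasi-likelihood adjusted p = 0.242), Tgfb2 one of 0.34 ± 0.11, Sp5 one of 0.37 ± 0.15 and Wnt10b one of 0.22 ± 0.14. Sox4 stood at 0.04 ± 0.03, Sox21 at 0.23 ± 0.14, Lhx2 at 0.47 ± 0.19 and Sox9 at -0.60 ± 0.18, also without passing. Whether the fold changes of such a gene differed between the 2 ways of matching was not tested.

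**Figure D5:**
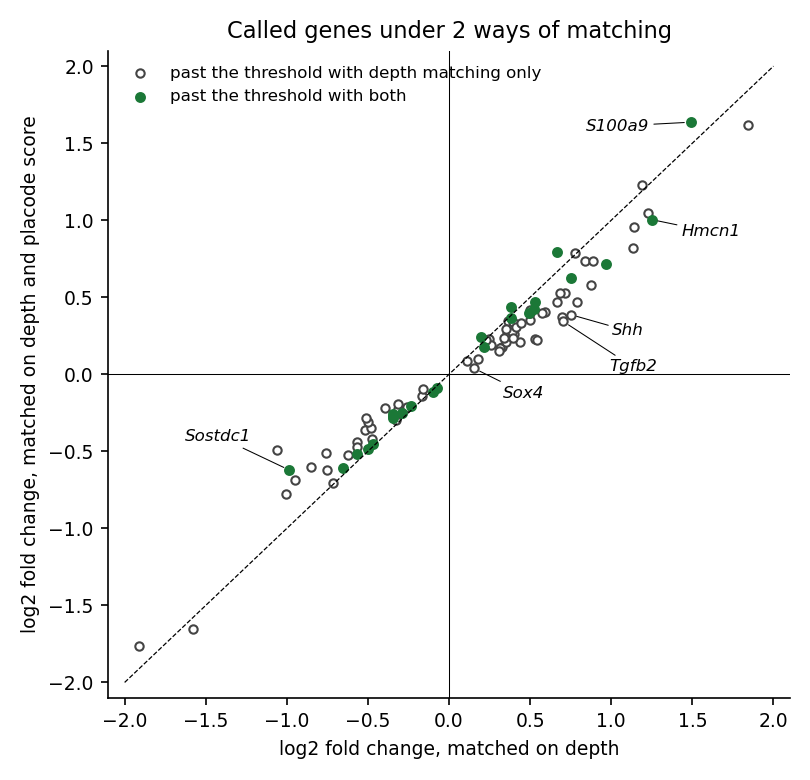
Log2 fold change of Madcam1-high over Madcam1-zero cells for the 93 called genes, with cells matched on depth (x axis) and on depth and placode score (y axis). The dashed line marks equal values, and filled green points are the 24 genes that passed the threshold under both. Shh lies at 0.75 and 0.39, Sostdc1 at -0.98 and -0.62, and S100a9 at 1.49 and 1.64.

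A set of 7 genes passed with depth matching, with score matching, with DESeq2 and with cells thinned to equal depth after they were classed, and were picked out after these values were seen. S100a9, Cyba and Ifitm3 rose, and Sostdc1, Krt15, Anxa2 and S100a11 fell. With cells thinned before they were classed, S100a9, Ifitm3 and Sostdc1 passed and the other 4 did not. With the block left out or low-count genes kept in, 0 of the 7 passed. Cyba, a subunit of the superoxide-producing NADPH oxidase, stood at 304 and 290 CPM in Madcam1-high cells, against 203 and 206 CPM in Madcam1-zero cells, a log2 fold change of 0.53 ± 0.06. Ifitm3, an interferon-induced membrane protein, rose by 0.22 ± 0.03. Anxa2, an annexin, had a log2 fold change of -0.35 ± 0.04 and S100a11, which binds annexins, one of -0.29 ± 0.04.

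Markers of other cell types were summed in each class. Summed levels of the melanoblast, endothelial, Merkel cell and erythroid marker lists were at most 4.14 CPM in any of the 4 sums, with 0 genes of these lists abundant enough to test. Of the immune markers Cd74, the invariant chain of antigen presentation, rose by 0.37 ± 0.07, at 147 and 135 CPM in Madcam1-high cells, against 110 and 107 CPM in Madcam1-zero cells. Fcer1g had 2 UMIs in matched Madcam1-high cells and 2 in matched Madcam1-zero cells, and Ptprc, Lyz2 and Tyrobp were not analysed here. Fibroblast markers summed to 1566 and 1338 CPM in Madcam1-high cells, against 1445 and 1282 CPM in Madcam1-zero cells, and 0 of the 4 tested passed with edgeR. The Schwann markers summed to 6.39 and 5.78 CPM in Madcam1-high cells, against 6.43 and 4.97 CPM in Madcam1-zero cells. Median mitochondrial shares were 3.18% and 3.06% of UMIs in matched Madcam1-high cells of libraries 1 and 2, against 3.18% and 3.07% in matched Madcam1-zero cells. Of 13 mitochondrial transcripts and 16 stress genes 0 passed, with medians of 0.01 and -0.08.

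The total epithelium library, sorted without MAdCAM-1, held 35 placode cells, of which 3 were Madcam1-high and 29 Madcam1-zero. Its values come from too few cells for a test, and the exact 95% Poisson intervals cover counting error only. Shh stood at 452 CPM in the 3 Madcam1-high cells (19 UMIs, interval 272 to 705), against 24.5 CPM in the Madcam1-zero cells (13.4 to 41.1). Sostdc1 stood at 119 CPM in the Madcam1-high cells (38.6 to 277), against 256 CPM in the Madcam1-zero cells (216 to 301). These intervals lay apart for Shh and overlapped for Sostdc1. Of the 42 genes named by the rule or as list members that passed, 30 lay on the same side as in the placode-enriched libraries and 12 on the other side, 7 of them among the rises and 5 among the falls. The cells were not matched for depth, and a gene with 0 UMIs in the 3 Madcam1-high cells counts as lower. That was so for Selenbp1, Cldn10, Sox9 and Ncam1 among the falls and for S100a9, Nkain3, S100a6 and Sp5 among the rises. The share over all genes was not computed, so these side counts have no baseline. S100a9 was one of the 12, with 0 UMIs in the Madcam1-high cells, where the interval reaches 87.7 CPM, and 12.3 CPM in the Madcam1-zero cells (7 UMIs). Gsta4 was another, at 357 CPM in the Madcam1-high cells and 40.3 CPM in the Madcam1-zero cells.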

How the data were processed

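Single-cell UMI counts were measured in 1 total epithelium and 2 placode-enriched libraries. The authors deposited whole UMI counts per gene and cell without normalization, per the file headers and values. The submitters' processing notes name Cell Ranger, Seurat and mm10 but no versions. The annotation, strand setting and cell filters are not given in the sources used here. Overlapping and antisense genes may therefore share reads. The number ending each barcode was taken as the library number, and 2 barcodes occurred in both placode-enriched libraries. The tables held 15900 and 14959 genes. Depth was 34900788 and 38645840 UMIs in the placode-enriched libraries and 36924284 in total epithelium, at medians of 21652, 23419 and 21977 per cell. The lowest gene number in a cell was 2006 and the highest mitochondrial share 4.98%. Per the labels each library was a litter pool. With the library as block, p-values set the difference between the classes against its variation over 2 pools, moderated over all genes. That variation gave 1 residual degree of freedom beside 18.9 prior ones from all genes. The spread used for a gene was therefore mostly shared over genes and only in small part its own.

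From the deposited counts, doublets were called with scrublet in scanpy 1.11.5 (expected rate 0.05) and removed: 7, 4 and 11 cells. These shares of 0.463%, 0.255% and 0.687% are low for droplets, so doublets can remain. Cells were matched 1 to 1 within a library on the natural log of UMIs (caliper 0.1, without replacement). The 4 sums were tested with edgeR 4.0.16 (R 4.3.3), using TMM, filterByExpr and the library as block, since both sums of a library come from the same pool. P-values were adjusted by Benjamini-Hochberg over all genes tested (threshold 0.05). Alternatives covered matching, thinning to 10000 UMIs, the Madcam1 minimum, the score minimum, cycling cells, doublets, the block, scaling, the low-count filter and DESeq2 1.42.0. On simulated counts for this comparison over 10350 genes, log2 changes of 0.5, 1 and 2 were recovered in 33.8%, 81.2% and 98.4% of cases, and 0.0296% of unchanged genes were called. The simulated sums had a fixed dispersion above the fitted one, no library effect and no crowding of UMIs in few cells. Low-count genes were not among those changed, so these shares need not hold for the real counts.

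Named genes were the 12 largest rises and 12 largest falls that passed, with the same sign in both libraries, a mean of at least 10 CPM and a symbol other than a Gm, Rik, Rpl, Rps or mt- name, besides list members and the 9 rule genes. Members and lists were chosen with earlier results of these data known. Positions are from GENCODE M21 (GRCm38), and promoters matched by symbol for 7963 of the genes tested.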

Additional observations from a re-analysis of the deposited data

How the results depend on the processing

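With 2 libraries and sparse UMIs, small fold changes may have been missed. In the simulated sums, with a dispersion above the fitted one, a log2 change of 0.5 was recovered in 33.8% of cases. In the real counts smaller changes also passed, down to 0.11 for rises and -0.08 for falls. The Madcam1-zero class mixes cells without the transcript and cells in which it was missed. The counts of genes higher and lower, 56 and 37, were 136 and 83 with cells not matched for depth, 10 and 10 when thinned to 10000 UMIs after classing, and 3 and 5 when thinned before. They were 12 and 12 with depth and placode score matched and 19 and 16 at a score of 8 or more. Without TMM they were 29 and 19, and with DESeq2 5 and 7 (89 genes at an unadjusted p under 0.05). Without the replicate block they were 0 and 0 (428 unadjusted), and without the low-count filter 0 and 0 (766 unadjusted, 15080 genes tested). The lower count was 59 with random matching within depth deciles and 62 with doublets kept, beside 79 and 82 higher. The prior degrees of freedom were 18.9 here, 150 with doublets kept and 4.31 without the filter. They were infinite for unmatched cells, depth deciles, a Madcam1 minimum of 3 and low G2 and M phase cells. In those settings the spread came wholly from all genes together. The other alternatives, with a Madcam1 minimum of 1 or 3, low G2 and M phase cells, or the total epithelium library added, gave 39 to 68 higher and 28 to 52 lower. The added total epithelium sums held only 2 matched cells of each class (30911 and 30988 UMIs), beside the unchanged main sums. Similar counts in that setting were thus largely fixed beforehand. Of 42 named genes under these settings, 2 turned round, Cldn10 at 0.13 and Relb at -0.026, both with thinning before classing. Of the 630 gene and setting pairs with a test, 317 kept the direction without passing. Another 311 kept it and either passed or had no adjusted p from DESeq2. The cause was not tested. Leaving out either library left 1 pair of sums, with no residual degrees of freedom and so no test. All 42 kept their sign, which was fixed beforehand, since each called gene had the same sign in both libraries.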

Other observations

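Levels of 4 genes near Madcam1 on chromosome 10 were read in the same cells. Tpgs1 stood at 37.2 and 35.5 CPM in Madcam1-high cells of libraries 1 and 2, against 40.9 and 34.8 CPM in Madcam1-zero cells. Cdc34, a ubiquitin-conjugating enzyme, stood at 59.0 and 44.8 CPM in Madcam1-high cells, against 60.5 and 55.5 CPM in Madcam1-zero cells. Bsg, the membrane protein basigin, stood at 341 and 338 CPM in Madcam1-high cells, against 329 and 349 CPM in Madcam1-zero cells. None of these 3 passed with edgeR. Shc2 was too low to test, at 2.32 and 1.93 CPM in Madcam1-high cells (15 UMIs), against 1.17 and 1.1 CPM in Madcam1-zero cells (8 UMIs), and its sums did not overlap.

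Further genes outside the lists, picked after their values were seen, also passed. Tuba1a, an alpha-tubulin, stood at 439 and 335 CPM in Madcam1-high cells, against 292 and 294 CPM in Madcam1-zero cells, and Tubb2b, a beta-tubulin, at 197 and 211 CPM, against 142 and 175 CPM in Madcam1-zero cells. Fn1, fibronectin, stood at 111 and 121 CPM in Madcam1-high cells, against 73.6 and 101 CPM in Madcam1-zero cells. Sparc, a collagen-binding matrix protein, stood at 181 and 185 CPM in Madcam1-high cells, against 249 and 254 CPM in Madcam1-zero cells, with a log2 fold change of -0.47 ± 0.06 and, with the placode score matched, of -0.45 ± 0.07. Flrt3, a leucine-rich repeat transmembrane protein, stood at 174 and 168 CPM in Madcam1-high cells, against 117 and 120 CPM in Madcam1-zero cells.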
